A study of Mus musculus with 4 samples.

Results

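Olfr78 and Olfr558 are 2 odorant receptor genes that were followed in single cells of the mouse aorta, out of 27734 genes counted in all 4 libraries and beside 1066 other odorant receptor genes. They were chosen because earlier results from these data had placed them in smooth muscle of the descending aorta, so their own levels are given as a description, with no test. Each gene was found by its Ensembl identifier, ENSMUSG00000043366 for Olfr78 and ENSMUSG00000070423 for Olfr558. The cells came from cKO mice (CNC-SMC-Cre;Smad4flox/flox;R26-tdT) and control mice (CNC-SMC-Cre;R26-tdT) aged 16 to 20 weeks. Both genotypes carry the CNC-SMC-Cre driver and the R26-tdT reporter, and the cKO mice also carry a floxed allele pair of Smad4, a mediator of TGF-beta and BMP signals. The aortic arch and the descending thoracic aorta of each genotype gave 1 library each of a droplet 5′ assay, whose unit is the UMI, a molecular barcode that stands for 1 captured transcript of a gene in a cell. No source used here gives the number of animals behind a library, so no difference between groups has a replicate check, and intervals are 95% intervals that cover counting error only.

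Odorant receptors are G protein-coupled receptors, best known from sensory neurons of the nose, where the G protein subunit encoded by Gnal, adenylyl cyclase Adcy3 and cyclic nucleotide-gated channels turn an odorant into a cAMP signal. Some of them are also used outside the nose. Olfr78 is known from vascular smooth muscle, renin-producing cells of the kidney and the oxygen-sensing glomus cells of the carotid body, and has been reported to respond to short-chain fatty acids and, with dispute, to lactate. Olfr558 is known from blood vessels as well and has been reported to respond to fatty acids of short and medium chain.

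Both genes lie on chromosome 7 within the same odorant receptor cluster. In the GENCODE annotation of GRCm38, Olfr558 covers positions 102702215 to 102712064 on the plus strand with 2 exons, and Olfr78 covers positions 102738511 to 102759471 on the minus strand, with 26447 bases between them. As in other odorant receptors, the whole coding sequence lies in 1 exon, of 954 bases at 102709261 to 102710214 in Olfr558 and of 963 bases at 102742039 to 102743001 in Olfr78. A global alignment of the coding sequences had 615 identical bases in 976 columns (63.0%), with a longest identical run of 23 bases. The transcripts Olfr78-201 and Olfr558-201 share no run of 31 bases, which matters because reads of near copies could be counted for either gene. The aligned gap-free stretch of 90 bases with the most identical bases, 68, is shown from the GENCODE transcripts to let both genes be compared base by base. It covers coding bases 276 to 365 of Olfr78 and 285 to 374 of Olfr558, 5′ to 3′, and capitals mark the 22 bases that differ.
Olfr78: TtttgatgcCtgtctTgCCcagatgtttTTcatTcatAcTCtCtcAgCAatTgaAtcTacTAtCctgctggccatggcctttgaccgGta
Olfr558: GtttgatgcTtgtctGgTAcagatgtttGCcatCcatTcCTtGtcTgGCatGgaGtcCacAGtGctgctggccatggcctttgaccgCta

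The sequence before the annotated start of Olfr558 is shown too, from the RefSeq promoter table (GRCm38.p6, plus strand, chr7:102702073-102702214). The same source has no entry for Olfr78, so the search below covers Olfr558 only and does not bear on what the receptors share.
Olfr558 upstream: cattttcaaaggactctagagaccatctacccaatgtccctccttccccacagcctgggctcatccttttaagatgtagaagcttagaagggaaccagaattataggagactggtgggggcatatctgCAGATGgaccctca
These 142 bases were searched on both strands for the CArG box of serum response factor, the TEAD motif CATTCC, the promoter motif TATAAA, the SMAD motif CAGAC and the E-box CANNTG. The only match was 1 E-box, marked in capitals, whose first base lies 14 bases before the start. An E-box occurred in 47.2% of 32851 windows of the same length from the same table, and the CArG box in 0.724%.

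Of 21 other annotated genes within 100 kb of either receptor, 11 odorant receptor genes were counted in all 4 libraries. Together they had 3 UMIs in all smooth muscle cells, whereas the ubiquitin ligase gene Trim68 of the same interval had 79, 268, 117 and 153 UMIs in cKO arch, control arch and the cKO and control descending smooth muscle. One overlap bears on the counts. Olfr560, which shares 926 of the 6033 exonic bases of Olfr78 on the same strand, had its own row in the control arch and both the cKO and the control descending files, with 3, 37 and 22 UMIs in smooth muscle. The shared bases lie in exons 1 and 2 of Olfr78-201, at the 5′ end of the transcript, and the libraries come from a 5′ assay. The cells with an Olfr560 UMI also had an Olfr78 UMI in 1 of 3, 25 of 28 and 18 of 19 cases, and reads from the shared bases cannot be told apart. The cKO arch file follows another annotation without that row. The effect on the Olfr78 count, and so on each Olfr78 ratio that involves the cKO arch, was not tested.

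After filtering, the cKO arch, control arch and the cKO and control descending libraries held 5569, 8046, 5622 and 4989 cells with medians of 5768, 9957, 6411.5 and 7053 UMIs. Smooth muscle was gated as cells with at least 5 UMIs of Myh11, the smooth muscle myosin heavy chain, which gave 1200, 3718, 1524 and 1272 cells. Sets of 4 values without library names keep this order: arch of cKO mice, arch of control mice, descending aorta of cKO mice, descending aorta of control mice. Their mean Acta2 count, the smooth muscle actin, was 275, 386, 285 and 299 UMIs per cell, against 1.40 to 3.0 in gated leukocytes. Any pair of libraries shared 27 to 60 cell barcodes, at most 1.20% of the smaller library. Smad4 stood at 62.7 CPM (UMIs scaled to the same total in each summed group of cells) in cKO arch and 72.4 CPM in control arch smooth muscle, and at 89.5 CPM in cKO descending and 91.3 CPM in control descending smooth muscle. No source used here gives the deleted part of Smad4, so these values do not check the labels.

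Olfr78 was detected in 6 of 1200 cKO arch smooth muscle cells (0.50%, exact Clopper-Pearson interval 0.184 to 1.09%) and in 45 of 3718 control arch cells (1.21%, 0.884 to 1.62%). In the descending aorta it was detected in 150 of 1524 cKO cells (9.84%, 8.39 to 11.4%) and in 91 of 1272 control cells (7.15%, 5.8 to 8.71%). Both descending libraries were above both arch libraries, with no overlap of intervals between the regions. These intervals cover counting error only, and the receptors were picked for this pattern, so the order is a description.

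Olfr558 followed the same order with more cells. It had a UMI in 8 cKO arch cells (0.667%, 0.288 to 1.31%), 82 control arch cells (2.21%, 1.76 to 2.73%), 194 cKO descending cells (12.7%, 11.1 to 14.5%) and 136 control descending cells (10.7%, 9.05 to 12.5%). Smooth muscle cells with these receptors were thus a minority in every library.

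**Figure D1:**
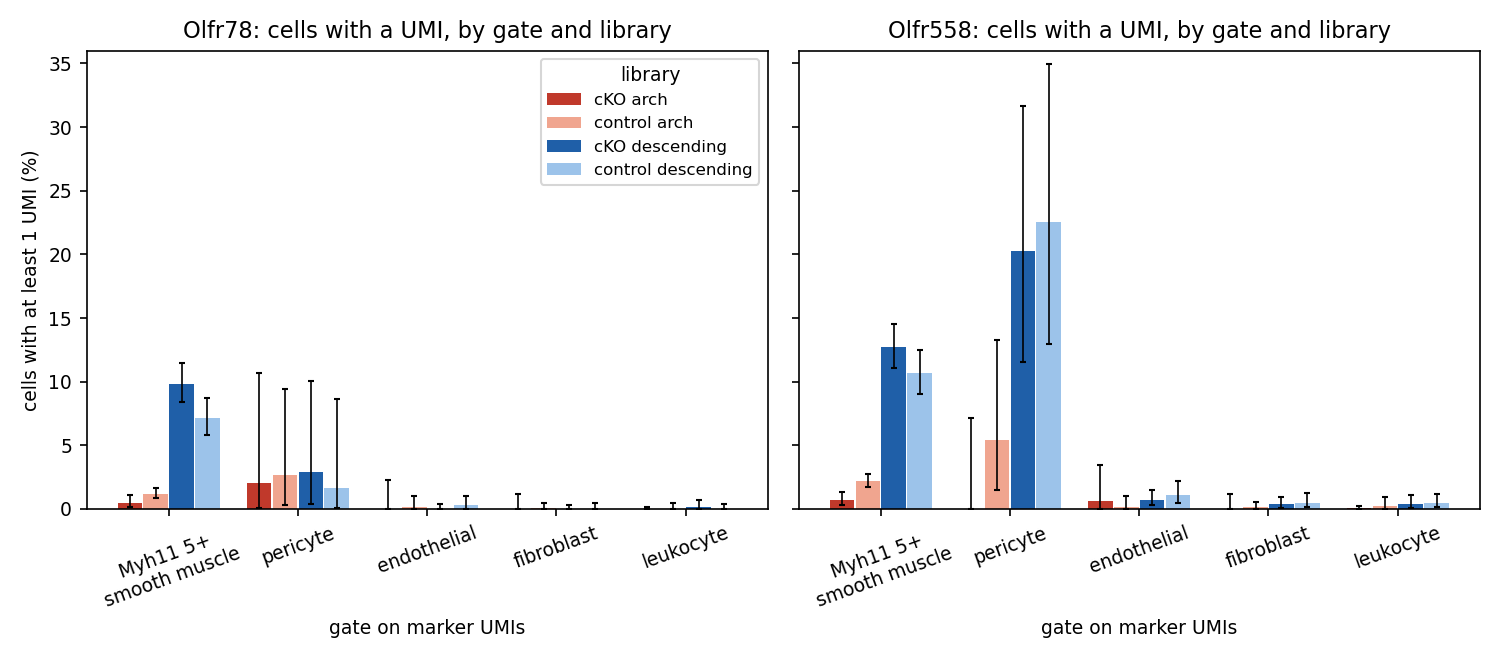
Cells with at least 1 UMI of Olfr78 (left) or Olfr558 (right), in percent of the gated cells of each library, with exact 95% binomial intervals. The descending libraries (blue) stand above the arch libraries (red) in Myh11 5+ smooth muscle for both receptors, and the pericyte gate of the descending libraries is high for Olfr558 only, at 20.3 and 22.6%.

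Both descending libraries also stayed above both arch libraries with every cell thinned at random to 3000 UMIs, which levels the depth. Olfr78 then had a UMI in 0.256% of cKO arch, 0.637% of control arch, 5.98% of cKO descending and 4.75% of control descending smooth muscle cells. For Olfr558 the thinned shares were 0.427, 1.47, 9.14 and 7.41% in that order. The order of the genotypes within the descending aorta was not stable for Olfr78, since another random thinning gave 5.13% in cKO and 5.16% in control cells. In the cKO descending library Olfr558 was found in 11.9% of cells with 5 to 19 Myh11 UMIs, 12.5% of those with 20 to 49 and 13.5% of those with 50 or more, while in the control descending library the first of these classes was the highest, at 14.9%.

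Free RNA gives some UMIs in cells that do not make a transcript, and leukocytes served as the level to read against. Olfr78 was found in 0 of 2269 cKO arch leukocytes, 0 of 748 control arch, 1 of 814 cKO descending and 0 of 895 control descending leukocytes, and a count of 0 allows shares of up to 0.132, 0.401 and 0.335% in the libraries at 0. Olfr558 was found in 1, 2, 3 and 4 leukocytes (0.0441, 0.267, 0.369 and 0.447%). The median leukocyte had 4294, 5083.5, 5434 and 6636 UMIs, against 11961, 14150.5, 11535 and 13327.5 UMIs in smooth muscle. At 3000 UMIs per cell the Olfr78 share of cKO arch smooth muscle was 0.256% (0.0529 to 0.747%), and 0 of 1503 leukocytes of that library had a UMI, with an interval up to 0.245%. These intervals overlap, so Olfr78 in cKO arch smooth muscle was not separated from the leukocyte level at this depth. The same held for Olfr558, at 0.427% (0.139 to 0.994%) in that smooth muscle and 0 of 1503 leukocytes, with an interval up to 0.245%.

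Fibroblasts and endothelial cells had few positive cells. Olfr78 had a UMI in at most 0.276% of either type in any library, and Olfr558 in at most 0.503% of fibroblasts and 1.10% of endothelial cells. In the control descending library Olfr558 stood at 4.44 CPM (2.63 to 7.02) in endothelial cells, against 0.779 CPM (0.286 to 1.70) in leukocytes. The endothelial value rests on 18 UMIs in 8 cells. By share the intervals overlapped there, at 1.10% (0.478 to 2.16%) and 0.447% (0.122 to 1.14%). In the cKO descending library the CPM intervals overlapped too, at 1.37 (0.550 to 2.82) and 0.560 (0.115 to 1.64). By share, endothelial cells were thus not separated from the leukocyte level. Pericytes, the mural cells of small vessels, were gated on Kcnj8, Abcc9, Higd1b, Vtn and Cspg4 with under 5 Myh11 UMIs. Olfr558 was found in 0 of 50 cKO arch pericytes, 4 of 74 control arch (5.41%, 1.49 to 13.3%), 14 of 69 cKO descending (20.3%, 11.6 to 31.7%) and 14 of 62 control descending pericytes (22.6%, 12.9 to 35.0%). Olfr78 was found in 1, 2, 2 and 1 of the same cells, at most 2.90%. The single cKO arch pericyte held 8 Olfr78 UMIs, as many as all cKO arch smooth muscle cells together. A stricter gate of 10 marker UMIs with under 2 Myh11 UMIs left 19 control arch pericytes, of which 2 (10.5%) had Olfr78 and 2 had Olfr558. Higd1b and Vtn averaged 1.38 and 1.52 UMIs in the cKO descending pericyte gate and 1.19 and 1.39 UMIs in the control descending one. In the arch pericyte gates they averaged 0.18 and 0.30 UMIs (cKO) and 0.243 and 0.878 UMIs (control). Both stood at 0.0786 UMIs or fewer in descending smooth muscle. These genes are among the gate's own markers, so the values describe the gate and do not check it. Cspg4 is common in smooth muscle, and with it left out of the gate Olfr558 was found in 30.2% of 43 cKO descending and 33.3% of 39 control descending pericytes.

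As summed levels, Olfr78 reached 0.487 CPM (8 UMIs) in cKO arch smooth muscle and 1.79 CPM (102 UMIs) in control arch smooth muscle, a log2 ratio of -1.80 (-3.13 to -0.84). Olfr558 reached 1.16 CPM (19 UMIs) in the cKO arch and 5.84 CPM (333 UMIs) in the control arch, a log2 ratio of -2.30 (-3.09 to -1.67). Both were thus lower in the cKO arch by more than 1.5-fold, as were 16.5% of the 11924 genes that reached 100 UMIs over this pair of libraries (7.87% were higher), and 292 and 170 of these genes had a lower ratio than Olfr78 and Olfr558. Mitochondrial UMIs moved with this difference. All 10 cKO arch smooth muscle cells with a receptor had a mitochondrial share of at least 5%, as did 26.3% of all cKO arch and 2.96% of all control arch smooth muscle cells. With cells restricted to under 5% and at least 1000 genes, Olfr78 was found in 0 of 882 cKO arch cells, which allows up to 0.340%, and in 32 of 3596 control arch cells (0.890%), and Olfr558 in 0 of 882 and in 62 of 3596 (1.72%). With cells thinned to 3000 UMIs the log2 ratio of Olfr78 was -0.84 with an interval of -2.68 to 0.42, which spans 0. The part of cell quality in the difference was not tested.

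In the descending aorta the genotypes were close. Olfr78 reached 25.2 CPM (457 UMIs) in cKO and 21.2 CPM (370 UMIs) in control smooth muscle, a log2 ratio of 0.25 (0.05 to 0.45), and Olfr558 49.4 CPM (895 UMIs) in cKO and 47.7 CPM (833 UMIs) in control smooth muscle, a log2 ratio of 0.05 (-0.09 to 0.19). Neither passed 1.5-fold, which 1.17% of 11173 genes did upward and 2.60% downward. The sign did not hold under every setting. With cells thinned to 3000 UMIs the log2 ratio of Olfr78 was -0.15. Leaving out Myh11 5+ cells of any other gate kept 344 of 1524 cKO and 225 of 1272 control cells. The log2 ratio was then -0.39 for Olfr78 and -0.45 for Olfr558.

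Between the regions the receptors were among the most unequal genes. Against the cKO descending library, the cKO arch had log2 ratios of -5.61 (-6.91 to -4.70) for Olfr78 and -5.38 (-6.15 to -4.76) for Olfr558, and only 12 and 16 of 11024 genes had a lower ratio. Against the control descending library, the control arch had log2 ratios of -3.56 (-3.90 to -3.25) and -3.03 (-3.22 to -2.85), and 25 and 40 of 11999 genes had a lower ratio. Genes lower by at least 1.5-fold in the arch made up 16.8% in cKO and 9.10% in control smooth muscle, and genes higher by as much made up 6.57 and 5.24%. Since the receptors were picked for this pattern, their place in that order is a description.

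Transcripts per positive cell are given as a description, since a positive cell has at least 1 UMI by definition. Within cells that had at least 1 Olfr78 UMI, its level was 174 CPM in the cKO arch, 259 CPM in the control arch, 325 CPM in the cKO descending and 391 CPM in the control descending library. Olfr558 stood at 302, 391, 479 and 528 CPM in its own positive cells in that order. The highest count in a single smooth muscle cell was 2, 9, 21 and 17 UMIs for Olfr78 and 6, 14, 23 and 29 UMIs for Olfr558. Of the control descending cells with Olfr558, 30 had 10 UMIs or more, 35 had 5 to 9, 46 had 2 to 4 and 25 had a single UMI.

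Olfr78 and Olfr558 were detected in the same cells. Among Olfr78-positive smooth muscle cells, Olfr558 was found in 4 of 6 in the cKO arch (66.7%, 22.3 to 95.7%), 42 of 45 in the control arch (93.3%, 81.7 to 98.6%), 130 of 150 in the cKO descending (86.7%, 80.2 to 91.7%) and 85 of 91 in the control descending library (93.4%, 86.2 to 97.5%). Among Olfr78-negative cells the shares were 0.335, 1.09, 4.66 and 4.32%, and 0.703, 1.98, 6.17 and 4.68% once the negative cells were weighted to the depth of the positive ones. In each library the interval of the positive cells lay wholly above that of the negative cells. This is a description, since cells of a library are not replicates and the pair was chosen with earlier results of these data known. By level, 32.4, 17.7, 12.2 and 16.6% of 9187 genes were higher by at least 1.5-fold in Olfr78-positive cells.

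**Figure D2:**
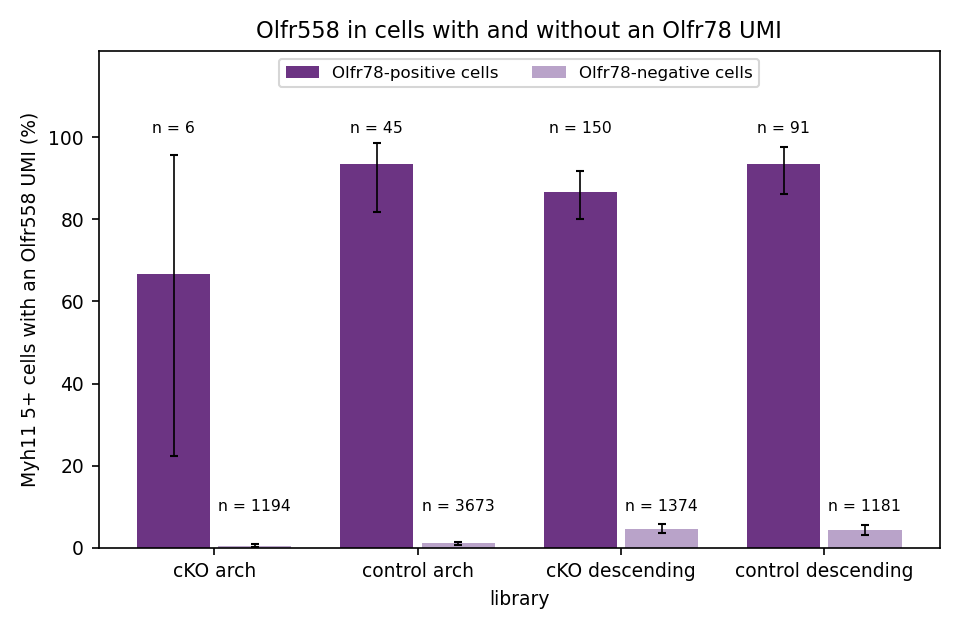
Myh11 5+ cells with an Olfr558 UMI, in percent, among cells with (dark) and without (light) an Olfr78 UMI in each library, with exact 95% binomial intervals and the number of cells above each bar. The dark bars stand at 66.7 to 93.4% and the light bars at 0.335 to 4.66%.

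The reverse share was lower, because Olfr558 was found in more cells. Olfr78 was detected in 50% of 8, 51.2% of 82, 67.0% of 194 and 62.5% of 136 Olfr558-positive cells of the cKO arch, control arch and the cKO and control descending library. That share was higher in cells with more Olfr558 UMIs. In the control descending library it was 90.8% of 65 cells with 5 or more UMIs, 45.7% of 46 cells with 2 to 4 and 20.0% of 25 cells with 1, against 0.528% of 1136 cells with none. In the cKO descending library the same classes gave 82.9, 64.7, 36.4 and 1.5%.

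Olfr558 was therefore the receptor more often seen alone. The control descending library had 85 cells with both, 6 with Olfr78 only and 51 with Olfr558 only, and the cKO descending library had 130, 20 and 64. Cells with both were shallower than cells with neither, at medians of 9953 and 13772 UMIs in the control descending and 9057.5 and 12001.5 UMIs in the cKO descending library. Their mitochondrial share was higher, at 4.42 and 2.82% in the control descending, 4.92 and 2.72% in the cKO descending, 3.83 and 2.28% in the control arch and 7.32 and 4.11% in the cKO arch library. Their median doublet score was lower in each library, at 0.0164 to 0.0275 in cells with both and 0.0256 to 0.0426 in cells with neither.

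Genes that go with the receptors were sought inside Myh11 5+ cells as the log2 ratio of CPM in positive over negative cells of the same library, with negative cells weighted to the depth of the positive ones. The 9187 genes with at least 100 UMIs in every library were ranked by the ratio nearest 0 of the 4 libraries, and genes whose level in smooth muscle was under 0.1 of that in another gated type are given apart. These ratios belong to the choice of the members and are a description. With Olfr78, 475 genes (5.17%) were higher by at least 1.5-fold in all 4 libraries and 496 (5.40%) lower, and with Olfr558, 442 (4.81%) were higher and 513 (5.58%) lower. Of the higher genes, 364 (76.6% of the Olfr78 and 82.4% of the Olfr558 genes) were the same, and of the lower genes 401 (80.8 and 78.2%). Cells with both receptors count as positive for each, so the gene sets are not independent, and the part of these cells in the overlap was not tested. The cKO arch ratios rest on 6 and 8 positive cells, and 54.0% of the lower genes of Olfr78 and 53.8% of those of Olfr558 had no UMI in these cells.

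The 10 leading higher genes were Sbspon, Tbx2, Tesc, Daam2, Col19a1, Usp2, Mamdc2, Pgf, Klhl29 and Rgs4 for Olfr78, and for Olfr558 the same apart from Tmem51 in place of Rgs4. Sbspon, which encodes a secreted protein with somatomedin B and thrombospondin domains, stood at 79.6, 72.8, 97.9 and 87.5 CPM in Olfr558-positive cells of the cKO arch, control arch and the cKO and control descending library, against 5.79, 2.30, 7.60 and 5.27 CPM in negative cells. Its log2 ratios ran from 3.69 to 4.99. Tbx2, a T-box transcription factor, stood at 127, 226, 281 and 292 CPM in Olfr558-positive cells, against 21.1, 11.0, 24.3 and 24.3 CPM in negative cells.

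Tesc, which encodes a calcium-binding protein, stood at 239, 295, 270 and 234 CPM in Olfr558-positive cells, against 20.9, 8.67, 19.2 and 19.5 CPM in negative cells. Pgf, placental growth factor, stood at 95.5, 81.0, 89.9 and 69.7 CPM in positive cells, against 11.2, 2.99, 7.57 and 6.33 CPM in negative cells. The positive cells were higher in each library for both genes. Daam2, a formin that organises actin, and Col19a1, a collagen chain, had log2 ratios of 3.45 to 4.05 and 3.37 to 3.85. Usp2, a deubiquitinating enzyme, ranged from 2.88 to 3.83, Mamdc2 from 3.12 to 3.63, Tmem51 from 3.11 to 4.57 and Klhl29 from 2.89 to 3.40, the last on 2 UMIs in the cKO arch positive cells.

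**Figure D3:**
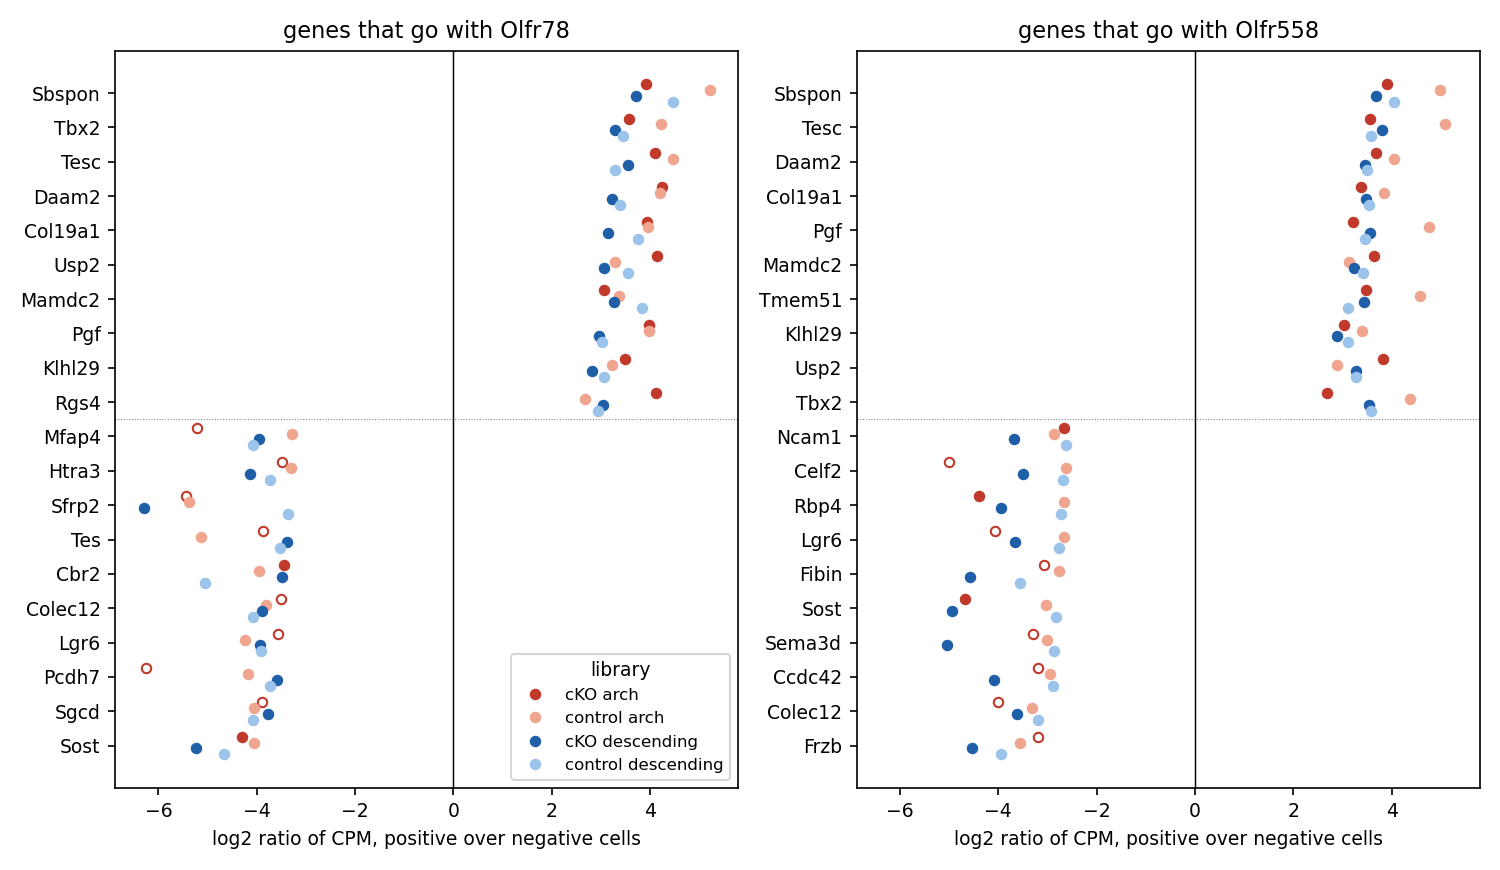
Log2 ratio of CPM in positive over negative Myh11 5+ cells for the 10 leading higher and 10 leading lower genes of Olfr78 (left) and Olfr558 (right), 1 point per library, open where the positive cells had no UMI. All points of the upper genes lie at 2.67 or higher and all points of the lower genes at -2.62 or lower; open points depend on the prior of 0.5 UMI.

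Rgs4, a regulator that ends G protein signals, was the most abundant of these genes. It stood at 1106, 874, 679 and 593 CPM in Olfr78-positive cells of the cKO arch, control arch and the cKO and control descending library, against 64.5, 137, 82.7 and 77.2 CPM in negative cells. By class in the control descending library, Rgs4 was at 597 CPM in cells with both receptors, 500 CPM with Olfr78 only, 329 CPM with Olfr558 only and 57.7 CPM with neither. In the cKO descending library these classes had 715, 350, 491 and 55.8 CPM, so Rgs4 in cells with either receptor alone was also above cells with neither. The classes with Olfr78 only hold 6 control and 20 cKO descending cells. In those 6 cells Daam2 and Pgf had no UMI, with an interval up to 87.8 CPM. The other leading higher genes of Olfr78 were above their level in control descending cells with neither.

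The lower genes overlapped less, with Sost, Lgr6 and Colec12 among the first 10 of both receptors. Sost, which encodes the secreted Wnt antagonist sclerostin, had 1, 109, 31 and 115 UMIs in Olfr558-positive cells, or 15.9, 128, 16.6 and 72.9 CPM, against 612, 1042, 514 and 519 CPM in negative cells. Colec12, a scavenger receptor, had 0, 22, 32 and 39 UMIs in Olfr558-positive cells, with 25.8, 17.1 and 24.7 CPM in the libraries above 0, against 128, 262, 214 and 227 CPM in negative cells. Lgr6, a receptor for R-spondins, had 0, 34, 37 and 61 UMIs in Olfr558-positive cells, with 39.9, 19.8 and 38.7 CPM in the libraries above 0, against 133, 257, 254 and 266 CPM in negative cells.

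The remaining lower genes of Olfr78 were Sgcd, Pcdh7, Cbr2, Tes, Sfrp2, Htra3 and Mfap4. Mfap4, a protein of elastic microfibrils, had 0, 55, 41 and 45 UMIs in Olfr78-positive cells, with 140, 29.2 and 47.6 CPM in the libraries above 0, against 401, 1377, 457 and 816 CPM in negative cells. The adhesion protein Pcdh7 had 0, 13, 96 and 51 UMIs in positive cells, with 33.0, 68.4 and 53.9 CPM above 0, against 823, 624, 833 and 720 CPM in negative cells. For Olfr558 the others were Frzb, Ccdc42, Sema3d, Fibin, Rbp4, Celf2 and Ncam1. Rbp4, a retinol carrier, stood at 15.9, 82.1, 39.6 and 72.9 CPM in Olfr558-positive cells, against 501, 523, 609 and 485 CPM in negative cells. Frzb, a secreted Wnt-binding protein, had 0, 9, 3 and 4 UMIs in positive cells, against 72.8, 132, 43.6 and 43.9 CPM in negative cells.

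Genes were also ranked on 3 libraries and read in the one left out. The 9187 genes ranked had passed the minimum UMI count in all 4 libraries, so the left-out library took part in their choice. These readings are therefore a description and not an independent check. Of the 50 leading higher genes ranked without the cKO arch, all 50 for Olfr78 and 48 for Olfr558 were higher by at least 1.5-fold there, where 32.4 and 29.9% of all 9187 genes were. Ranked without the control descending library, all 50 were higher by that much there for each receptor, where 16.6 and 12.2% of all genes were. Of the 50 leading lower genes ranked without the cKO arch, 42 were lower by at least 1.5-fold there for each receptor, where 25.9% (Olfr78) and 27.6% (Olfr558) of all genes were, and 33 (Olfr78) and 36 (Olfr558) of the 50 had no UMI in its positive cells. Of the 10 named lower genes, 4 for Olfr78 and 5 for Olfr558 stayed among the first 10 when the cKO arch was left out, against 8 and 9 of the named higher genes.

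Some genes that are far more abundant in another gated cell type were also higher with the receptors. Notch3, a Notch receptor of mural cells, stood at 971, 796, 1225 and 1108 CPM in Olfr558-positive smooth muscle cells of the cKO arch, control arch and the cKO and control descending library, against 38.0, 29.4, 87.6 and 89.8 CPM in negative cells. Gja4, a gap junction protein, stood at 366, 394, 397 and 487 CPM in positive cells, against 21.1, 14.2, 60.5 and 82.2 CPM in negative cells. Cox4i2, Igf2, Igfbp5 and Btbd3 belonged to the same group, with log2 ratios of 2.77 or more with Olfr558 and 2.73 or more with Olfr78. Genes more abundant in endothelial cells were among them, namely Igf2 and Btbd3 with both receptors, Fabp4 and Ucp2 with Olfr78, and Notch1, Trp53i11, Procr and Ramp2 with Olfr558. Fabp4, a fatty acid carrier, stood at 2213, 2841, 2360.2 and 3740.5 CPM in Olfr78-positive cells, against 229, 286, 239 and 396 CPM in negative cells.

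Pericyte markers did not move as a block. Of the 14 genes in the list of pericyte and small-vessel genes, 12 passed the minimum, and with Olfr558 4 were higher by at least 1.5-fold in all 4 libraries (Notch3, Gja4, Gucy1a1 and Pdgfrb) and 1 was lower, against 4.81 and 5.58% of all genes. The lower one was Abcc9, a subunit of the ATP-sensitive potassium channel, at 0, 35.2, 37.4 and 69.7 CPM in Olfr558-positive cells, against 136, 125, 234 and 187 CPM in negative cells. Cspg4 was nearly even, at 318, 543, 590 and 532 CPM in Olfr558-positive cells of the cKO arch, control arch and the cKO and control descending library, against 460, 449, 580 and 592 CPM in negative cells. Higd1b, under the minimum, stood at 79.6, 43.4, 51.9 and 50.7 CPM in positive cells and 1.07, 0.375, 1.11 and 1.46 CPM in negative cells, and Vtn at 0, 9.39, 21.9 and 31.7 CPM in positive cells. The part of pericyte or endothelial RNA, or of cells between the types, in these ratios was not tested.

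Genes listed for oxygen sensing in carotid body glomus cells, where Olfr78 is well known, were higher in most measured cases. The list was chosen with earlier results of these data known, so its counts are a description. Rgs4 and Cox4i2 were already named above among the genes higher with the receptors. Of 12 listed genes 6 passed the minimum, and 4 of these were higher in all 4 libraries with each receptor (Epas1, Cox4i2, Kcnk3 and Rgs4) and none lower, beside 5.17% (Olfr78) and 4.81% (Olfr558) of all genes higher, with a median over members of 2.58 with Olfr558, against 0.0035 over all genes. Epas1, the hypoxia-inducible factor HIF-2 alpha, stood at 971, 701, 807 and 724 CPM in Olfr558-positive cells of the cKO arch, control arch and the cKO and control descending library, against 143, 122, 156 and 143 CPM in negative cells. Kcnk3, an acid-sensitive potassium channel, stood at 79.6, 146, 252 and 234 CPM in positive cells, against 17, 24.9, 34.7 and 27.0 CPM in negative cells.

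Cox4i2, a subunit of cytochrome c oxidase, stood at 159, 238, 252 and 326 CPM in Olfr558-positive cells, against 14.3, 34.9, 15.6 and 12.5 CPM in negative cells. Ndufa4l2, a mitochondrial protein that fell short of the minimum in the cKO arch, stood at 430, 264, 280 and 443 CPM in positive cells, against 1.25, 1.92, 6.03 and 6.72 CPM in negative cells. Both were more abundant in another gated type. Th and Chga, which define glomus cells, were at 1, 4, 0 and 2 UMIs and at 0 UMIs in all smooth muscle of the 4 libraries, and Higd1c was at 0, 1, 0 and 0 UMIs.

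**Figure D4:**
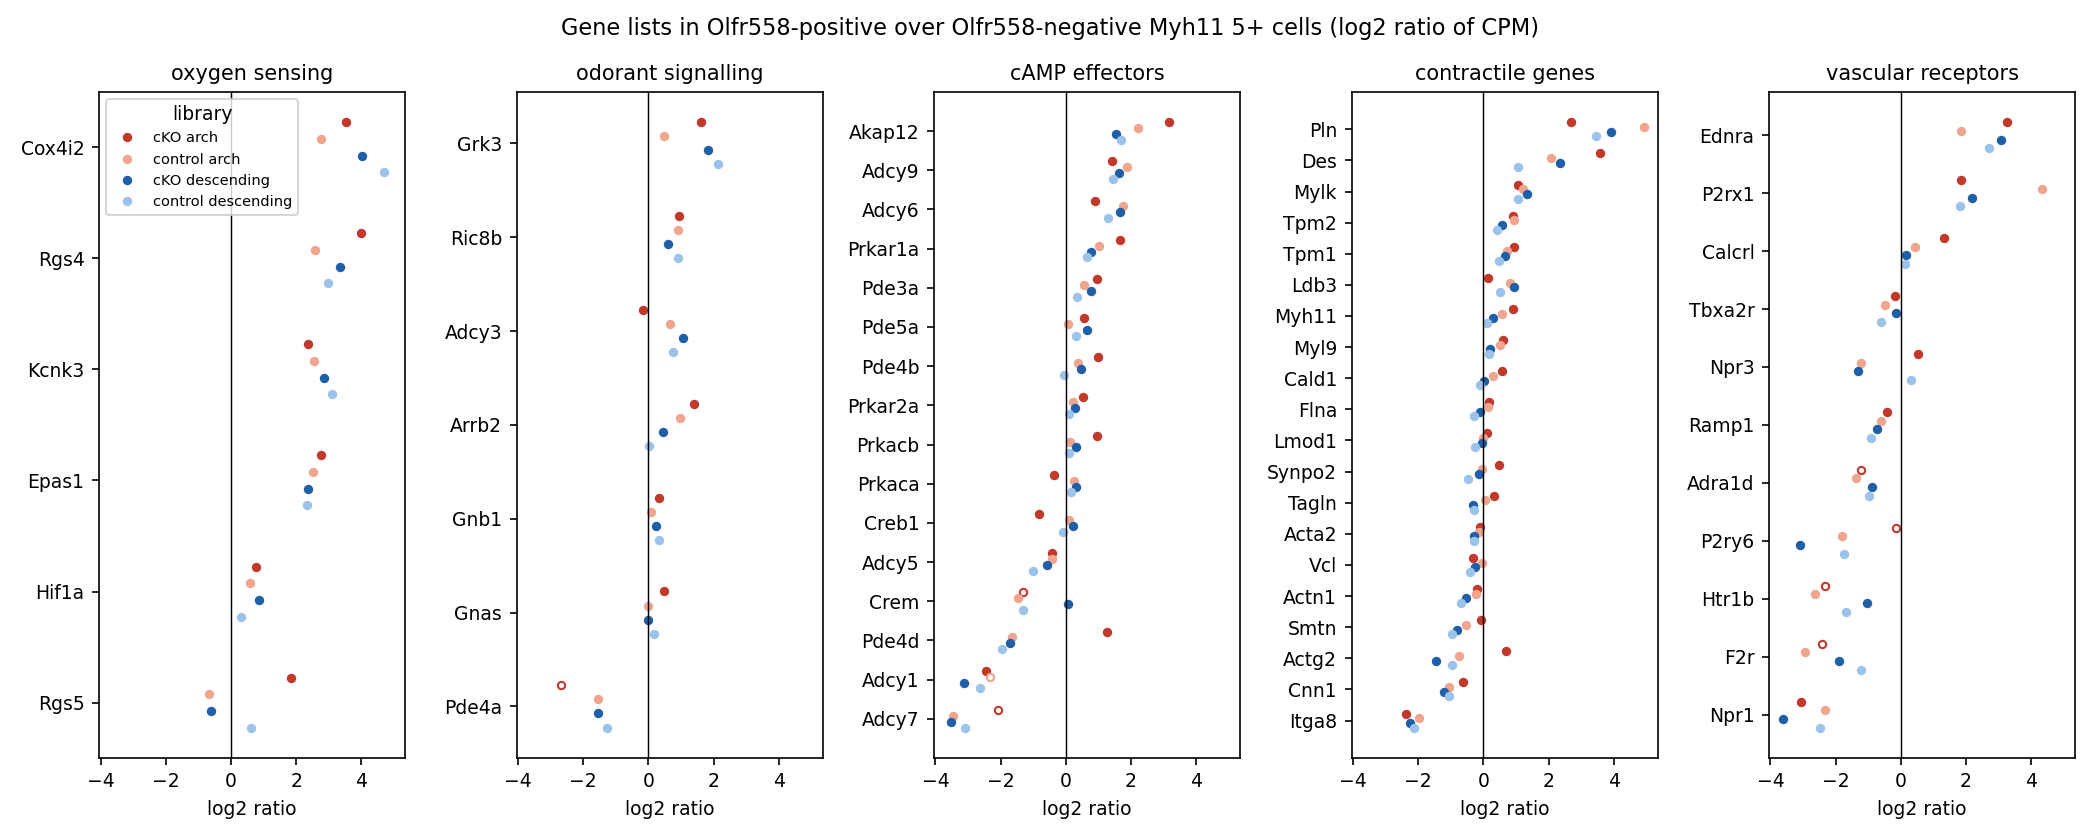
Log2 ratio of CPM in Olfr558-positive over Olfr558-negative Myh11 5+ cells for every member of 5 gene lists that passed the minimum of 100 UMIs, 1 point per library, open where the positive cells had no UMI. Cox4i2, Rgs4, Kcnk3 and Epas1 lie at 2.34 or higher in all 4 libraries, whereas most contractile genes lie near 0.

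Of the signalling and trafficking genes used in the nose, Gnal, Cnga2, Cnga4, Rtp1 and Rtp2 were hardly detected, whereas Adcy3 was measured. The median over the measured members of that list was 0.70 with Olfr558, against 0.0035 over all genes. Of 20 listed genes of odorant signalling and trafficking 7 passed the minimum, with 1 higher (Ric8b) and 1 lower (Pde4a) with Olfr558 in all 4 libraries, beside 4.81 and 5.58% of all genes. Gnal, the olfactory G protein subunit, had 14, 25, 5 and 7 UMIs in all smooth muscle cells of the cKO arch, control arch and the cKO and control descending library, of which 2 were in Olfr558-positive cells, both of the cKO descending library. The channel genes Cnga2 and Cnga4 had 1 UMI and none in all 4 libraries, and the receptor-trafficking genes Rtp1 and Rtp2 had none. Adcy3 was measured, at 15.9, 34.0, 55.6 and 51.3 CPM in Olfr558-positive cells, against 27.0, 21.7, 27.0 and 30.5 CPM in negative cells. Gnas, the widely used stimulatory G protein subunit, was even, at 1560, 1271, 1119.5 and 1261 CPM in positive cells, against 1131, 1293, 1125 and 1110.5 CPM in negative cells.

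Among 25 listed cAMP genes 16 passed the minimum, and with each receptor 4 were higher in all 4 libraries and 2 lower. Of all genes, 5.17% were higher and 5.40% lower with Olfr78, and 4.81% were higher and 5.58% lower with Olfr558. The higher ones with Olfr558 were the adenylyl cyclases Adcy6 and Adcy9, the anchoring protein Akap12 and the protein kinase A subunit Prkar1a. Adcy6 stood at 143, 153, 193 and 155 CPM in Olfr558-positive cells, against 81.2, 45.6, 60.8 and 62.8 CPM in negative cells. Adcy7 was lower, at 0, 3.52, 4.28 and 5.07 CPM in positive cells, against 34.0, 45.3, 51.8 and 45.8 CPM in negative cells. Adcy1 was the other lower one.

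Other receptors for short-chain fatty acids and lactate were near or under detection in smooth muscle. Ffar3 had 0 UMIs in each library and Ffar2 0, 2, 1 and 1 UMIs. Hcar1, a lactate receptor, had 5, 36, 31 and 50 UMIs, and stood at 0, 5.87, 10.7 and 17.7 CPM in Olfr558-positive cells, against 0.279, 0.407, 0.602 and 1.63 CPM in negative cells. Of the 14 listed genes 3 passed the minimum (Slc16a3, Slc16a7 and Acss2), and none was higher or lower in all 4 libraries. Renin, made by the kidney cells that use Olfr78, had 1, 5, 0 and 1 UMIs in all smooth muscle cells, so Ren1 was not a marker of the positive cells.

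All 20 contractile genes passed the minimum, and with each receptor 3 were higher and 2 lower in all 4 libraries, with a median over members of 0.0037 with Olfr558. The same shares of all genes apply, 4.81% higher and 5.58% lower with Olfr558, and the median of all genes was 0.0035. Pln, phospholamban, which restrains the calcium pump, stood at 239, 259, 390 and 307 CPM in Olfr558-positive cells, against 38.5, 8.55, 25.9 and 28.1 CPM in negative cells. Des, the intermediate filament desmin, stood at 1035, 556, 279 and 231 CPM in positive cells, against 88.1, 132, 55.2 and 110 CPM in negative cells. Mylk, myosin light chain kinase, had log2 ratios of 1.05 to 1.33. The lower ones were Itga8, an integrin, at 350, 668, 624 and 747 CPM in positive cells, against 1838, 2601, 2944 and 3284 CPM in negative cells, and Cnn1, calponin, with log2 ratios of -1.21 to -0.62. Acta2 had 20691, 21226, 19032 and 17361 CPM in positive cells, against 22448, 23429.8, 23099 and 21177 CPM in negative cells, and it did not pass 1.5-fold in any library.

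Of 37 listed vascular receptors 11 passed the minimum, with 2 higher and 4 lower with Olfr558 in all 4 libraries, as were 4.81 and 5.58% of all genes. Ednra, the endothelin A receptor, stood at 127, 119, 198 and 182 CPM in Olfr558-positive cells, against 14.2, 32.8, 23.6 and 28.2 CPM in negative cells. P2rx1, an ATP-gated channel, stood at 175, 171, 213 and 257 CPM in positive cells, against 50.3, 8.46, 47.3 and 73.8 CPM in negative cells. Npr1, a natriuretic peptide receptor, was lower, at 15.9, 32.9, 18.2 and 36.1 CPM in positive cells, against 199, 168, 226 and 202 CPM in negative cells. S1pr3, a sphingosine phosphate receptor that missed the minimum with 44 UMIs in the cKO arch and was singled out after its values were seen, stood at 223, 277, 321 and 209 CPM in positive cells, against 2.29, 2.82, 4.58 and 3.70 CPM in negative cells.

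Further lists were described by counts. Of 20 transcription factors that mark regions 6 passed the minimum, and with Olfr558 Msx1 was higher and Gata6 and Hoxa3 were lower in all 4 libraries, beside 4.81 and 5.58% of all genes. Msx1, a homeobox factor, stood at 111, 89.2, 41.7 and 55.8 CPM in Olfr558-positive cells, against 22.4, 23.5, 9.81 and 9.39 CPM in negative cells. Of 12 measured genes of modulated smooth muscle none was higher and 4 were lower in all 4 libraries, among them Fn1, fibronectin, at 302, 223, 487 and 279 CPM in positive cells, against 1144, 661, 1623 and 1119.8 CPM in negative cells.

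Of 10 immediate early genes, which respond to stimulation and to cell dissociation, 6 were higher with each receptor in all 4 libraries and none lower, with a median over members of 1.04 with Olfr558. All genes had a median of 0.0035 with Olfr558, and 4.81% of them were higher (5.17% with Olfr78). Egr1 stood at 1623, 1251, 1173 and 1255 CPM in Olfr558-positive cells, against 617, 420, 303 and 478 CPM in negative cells. These genes moved with the receptors beside the mitochondrial share given above, and the part of dissociation in the ratios was not tested.

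Among the other 1066 odorant receptor genes, 19, 56, 47 and 35 had any UMI in cKO arch, control arch and the cKO and control descending smooth muscle, and 13 had at least 10 UMIs over the 4 libraries. Olfr1033 was the most abundant with 6230 UMIs, and it stood at 4.32 CPM in cKO arch, 71.9 CPM in control arch, 48.3 CPM in cKO descending and 68.1 CPM in control descending smooth muscle. In Olfr558-positive cells it stood at 15.9, 14.1, 8.56 and 15.8 CPM in that order. It was thus below the level of all smooth muscle cells of the library in the control arch and both descending libraries, and above it in the cKO arch, where 15.9 CPM is 1 UMI. The annotation of the cKO arch file differs, and its low Olfr1033 level cannot be told apart from that. Olfr1034, Olfr224 and Olfr920 followed with 450, 243 and 115 UMIs, and none of them was above 2.35 CPM in Olfr558-positive cells of any library.

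RFP is a counted feature of the cKO arch matrix, which allowed a split of its smooth muscle. Olfr78 was found in 5 of 389 cells with at least 16 RFP UMIs (1.29%, 0.419 to 2.97%) and 1 of 128 cells with 8 to 15. It was found in 0 of 683 cells with under 8, with an exact interval up to 0.539%, which overlaps that of the first class. Olfr558 was found in 4, 1 and 3 of these cells. The 10 positive cells of this library had 1 to 68 RFP UMIs, and too few UMIs were counted to order the classes for either receptor.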

How the data were processed

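The deposited matrices hold whole-number UMI counts per gene and cell barcode. Reads were aligned to mm10 with Cell Ranger 6.1.1, per the submitters' processing notes, and the matrix headers name 6.1.2. No source used here gives the annotation release. Genes were matched by Ensembl identifier over the 27734 shared by all files, which hold at least 99.5% of UMIs. The libraries held 49407811, 98866674, 50922575 and 50285593 UMIs (cKO arch, control arch, cKO descending, control descending). Barcodes with fewer than 500 genes or with 10% mitochondrial UMIs or more were dropped, and the highest Scrublet scores (scanpy 1.11.5) were removed at 0.8% per 1000 cells, 4.17 to 6.92% of each library, since the automatic threshold called 5 cells in the cKO arch.

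Gates other than smooth muscle required 5 summed marker UMIs of 1 type and under 5 Myh11 UMIs. Counts were summed per library and gate and scaled to CPM. Ratios used a prior of 0.5 UMI, exact conditional intervals and, within smooth muscle, 5 depth bins. Shares have Clopper-Pearson intervals. A count of 0 allows 3 counts. With 1 library per group no test was made; scripts were tested on simulated data. Computations used Python 3.11.15 and scipy 1.17.1, and sequences were aligned with Biopython 1.88.

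The members, gates and lists were chosen with earlier results of these data known. Named genes are the 10 highest and 10 lowest by the ratio nearest 0 of the 4 libraries, all of 1 sign; haemoglobin, immune receptor, ribosomal protein, mitochondrial and unnamed genes were left out. List members named include those past 1.5-fold in all libraries, those defining the list, and others that meet neither rule. Some of these, such as Higd1b, Vtn, Ndufa4l2 and Hcar1, were under the minimum UMI count, and not every measured member is named. Alternatives changed cell filters, doublets, gates, scaling, depth and minimum counts. 1 gene that met the rule for genes given apart is not reported here.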

Additional observations from a re-analysis of the deposited data

Results flagged for a closer look

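The difference between cKO and control smooth muscle had another size in the arch than in the descending aorta, and another sign at the reported settings, for both receptors. For Olfr78 the log2 ratio of cKO to control was -1.80 (arch) and 0.25 (descending aorta), so the arch ratio minus the descending ratio was -2.05. For Olfr558 the ratios were -2.30 (arch) and 0.05 (descending aorta), a difference of -2.35. The difference was not tested, since each group has 1 library, and the sign in the descending aorta changes with the settings. The descending Olfr558 interval of -0.09 to 0.19 spans 0, so no opposite direction is shown for Olfr558.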

How the results depend on the processing

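No paired analysis was possible because each group has 1 library. For the level of Olfr78, thinning each cell to 3000 UMIs gave log2 ratios of -0.84 for cKO arch against control arch, -0.15 for cKO descending against control descending (reversed) and -4.21 for cKO arch against cKO descending. For Olfr558 thinning gave -2.80 for control arch against control descending. Leaving out Myh11 5+ cells that pass another gate kept 368, 914, 344 and 225 of 1200, 3718, 1524 and 1272 cells. It turned cKO descending against control descending to -0.39 for Olfr78 and -0.45 for Olfr558. It also gave -4.14 and -3.66 for control arch against control descending and 3.61 for co-detection in the cKO descending library. Most of the cells left out pass the pericyte gate, whose marker Cspg4 averages 5.97 to 7.83 UMIs in smooth muscle. Leaving out only those of other gates, added after seeing the data, gave 0.22 and -2.82 for the same Olfr558 ratios. Filters of 1000 genes and 5% mitochondrial UMIs turned the descending Olfr558 ratio to -0.15, and with 0 UMIs left in the cKO arch against a floor of 3 counts its ratio was -4.27 or lower against control arch and -7.10 or lower against cKO descending. A Myh11 gate of 2 UMIs turned the descending Olfr558 ratio to -0.0013. Mean single-cell CPM gave 0.045 for the descending Olfr78 ratio, and -3.24 and -2.72 for Olfr78 and Olfr558 in control arch against control descending. Depth matching gave 5.56 for co-detection in the control arch, against 6.42. Counted positive at 2 UMIs, Olfr78 had 308 lower genes. With a minimum of 30 UMIs, 742 and 684 genes were higher with Olfr78 and Olfr558, and with no minimum and a UMI required in the positive cells of each library, 690 were higher with Olfr558. Without the cKO arch, added after seeing the data, 842 and 771 genes were lower. Over these and the other alternatives for levels between libraries, co-detection and gene counts, 87 values stayed within the interval or 1.5 times of the reported ones, 20 moved beyond it and 5 reversed; for shares and single genes 235 stayed and 71 moved. In the comparisons of arch against descending smooth muscle no ratio changed sign. The cKO arch values rest on 8 Olfr78 and 19 Olfr558 UMIs in smooth muscle.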
